A study of Mus musculus with 16 samples.

Results

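The 10 genes described here, Abca1, Abcg1, Abcg5, Abcg8, Scarb1, Soat1, Soat2, Lcat, Nr1h3 and Nr1h2, carry out or control cholesterol efflux and cholesterol esterification, and were chosen by name from the 24082 Ensembl genes of a mouse liver RNA sequencing table. The livers came from 16 female C57BL6/J mice that were 9 to 11 weeks old at the start of feeding, with 4 mice in each of 4 groups. All mice received a Lieber-DeCarli liquid diet in a chronic feeding scheme of 25 days. Pair vehicle mice were pair-fed a diet in which maltose dextrin replaced ethanol calorie for calorie, Pair IMC mice received the same diet with iodomethylcholine (IMC), an inhibitor of the gut microbial enzyme that makes trimethylamine from choline, at 0.06% wt/wt, EtOH vehicle mice received ethanol that was raised in steps to 6% vol/vol, and EtOH IMC mice received both ethanol and IMC. According to the study's text, ethanol-fed mice given IMC ate less and weighed less, so food intake and IMC cannot be told apart in that group. A figure legend of the study also marks body weight as different between pair-fed mice with and without IMC. Libraries are named here by the number in their labels.

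Cells cannot break down the sterol ring, so liver cholesterol is exported to HDL, secreted into bile, made into bile acids or stored as cholesteryl ester. ABCA1 passes phospholipid and cholesterol to apolipoprotein A-I to make nascent HDL, ABCG1 passes cholesterol to more mature particles, and the ABCG5 and ABCG8 half-transporters pair to move cholesterol across the canalicular membrane into bile. SR-BI, the product of Scarb1, takes up cholesteryl ester from HDL, SOAT1 and SOAT2 esterify cholesterol in the endoplasmic reticulum, and LCAT, secreted by hepatocytes, esterifies cholesterol on plasma HDL. The liver X receptors LXRα (Nr1h3) and LXRβ (Nr1h2) are nuclear receptors for oxysterols that bind DNA with a retinoid X receptor partner and are known to raise the transcription of Abca1, Abcg1, Abcg5 and Abcg8.

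Libraries held 9632659 to 12601199 reads on genes, and all 10 genes passed the filter on low values, which 12522 genes passed. Values below are normalized counts, that is, reads on the gene divided by a size factor, rescaled by a median ratio over all 16 libraries because as deposited the median gene was higher by 0.189 on the log2 scale in ethanol-fed than in pair-fed mice. After rescaling that shift was -0.0024. The 7 hepatocyte markers were detected in every group, with a summed normalized count of 1300000 to 2000000 in Pair vehicle, 1850000 to 2000000 in Pair IMC, 1180000 to 1340000 in EtOH vehicle and 1070000 to 1460000 in EtOH IMC. Of the 8 pancreatic acinar markers, 5 were at 0 in every library. Of the 6 intestinal markers in the table Cdh17, Alpi and Reg3g had at most 3 reads in any library, but Fabp2 and Lgals4 were well detected, and the summed level of the 6 was 1260 to 1400 in Pair vehicle, 729 to 931 in Pair IMC, 1100 to 1230 in EtOH vehicle and 332 to 1430 in EtOH IMC. Library 11 of EtOH IMC stood apart from its group, with a chi-square per gene of 28.5 to 36.9 against the other 3 libraries, which differed from each other by 13.1 to 24.7, and results that rest on it are given with and without it. Pair vehicle libraries also differed widely, by 14.5 between libraries 10 and 14 and up to 47.1 between libraries 12 and 16. That was the highest value within any group.

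The level of the 10 genes differed over more than 2 orders of magnitude. Per kilobase of exon, the mean normalized count in Pair vehicle was 3443 ± 346 (SD, n = 4) for Lcat, 448 ± 44.3 for Nr1h3, 435 ± 54.9 for Abcg5, 351 ± 58.8 for Abcg8, 341 ± 35.8 for Soat2, 270 ± 14.7 for Scarb1, 223 ± 14.3 for Abca1, 125 ± 30.3 for Nr1h2, 9.11 ± 1.60 for Abcg1 and 8.53 ± 2.45 for Soat1. Lcat lay above 98.8% of tested genes per kilobase over the 16 libraries, whereas Abcg1 lay above 17.8% and Soat1 above 15.9%. In that order the ranges of Nr1h3 and Abcg5, of Abcg5 and Abcg8, of Abcg8 and Soat2, and of Abcg1 and Soat1 overlapped between neighbours in Pair vehicle, and those of the other neighbours did not. The place of Scarb1 depended on the length used: per kilobase of its longest transcript it reached 741 ± 40.4 and ranked second, since its annotated exons span 8500 bases and its longest transcript 3093. Abcg1 and Soat1 rested on 45 to 94 and 52 to 112 reads per library, so that changes of modest size were not detectable for them at this depth.

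**Figure D1:**
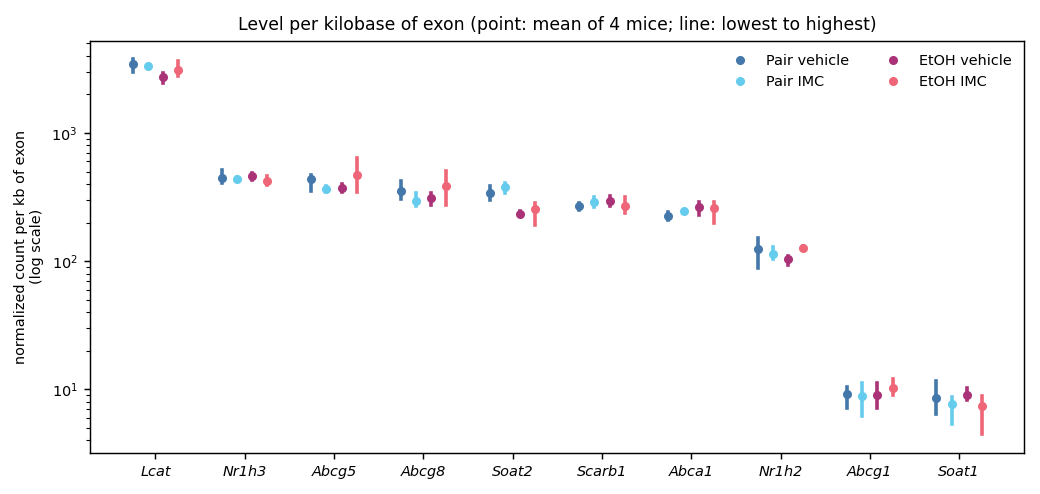
Mean normalized count per kilobase of exon (log scale) of the 10 genes in the 4 groups, ordered by Pair vehicle; points are means of 4 mice and lines run from the lowest to the highest library. Lcat was highest, and Abcg1 and Soat1 stood far below the other 8 genes.

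IMC moved none of the 10 genes past the threshold of an adjusted p of 0.05 in either diet. In pair-fed mice, 0 of 10 genes passed in limma, edgeR with TMM scaling and DESeq2, beside 9.49% of all 12522 genes in limma, and 0 of 10 had an unadjusted p under 0.05, beside 25.7% of all genes. In ethanol-fed mice, 0 of 10 passed in the same 3 tools (21.5% of all genes in limma), and 2, Abcg5 and Nr1h2, had an unadjusted p under 0.05 in limma (34.9% of all genes). Averaged over both diets, 0 of 10 passed in the 3 tools (28.2% of all genes in limma), and 0 had an unadjusted p under 0.05 (39.9% of all genes). With only 10 genes, small counts are expected at such shares, and whether these genes differ from all genes was not tested. The median log2 fold change of the 10 genes averaged over both diets was 0.051, from -0.23 for Soat1 to 0.14 for Soat2, and the median over all genes was -0.006. On the same average 4 of 9 stellate cell markers were lower and 0 higher, and Fabp2, 1 of 3 intestinal markers tested, was lower (-1.15, adjusted p = 0.00334); their part in the values of the 10 genes was not tested.

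Ethanol lowered Soat2 and, less firmly, Lcat, the pair of esterification enzymes most abundant per kilobase in these livers, and none of the 10 genes rose past the threshold. In vehicle mice 2 of 10 genes fell and 0 rose (all genes: 11.9% called, 5.56% lower), in IMC mice 1 of 10 fell and 0 rose (16.5% called, 8.61% lower), and averaged over vehicle and IMC 2 of 10 fell and 0 rose (26.1% called, 13.2% lower). The shares of 2 of 10 and 1 of 10 lay near these backgrounds, so the genes are described one by one. The rescaling factors were 0.9398 to 0.9449 in pair-fed and 1.0734 to 1.0789 in ethanol-fed libraries, so the deposited scale itself differs by diet. Ethanol differences on it carry its shift of 0.189 toward ethanol. On that scale Soat2 fell and 5 of the 10 genes (Abca1, Abcg5, Abcg8, Scarb1 and Nr1h3) were higher and passed on the average over vehicle and IMC, with log2 fold changes of 0.18 to 0.34. The sign and the call of small ethanol differences therefore rest on the rescaling.

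**Figure D2:**
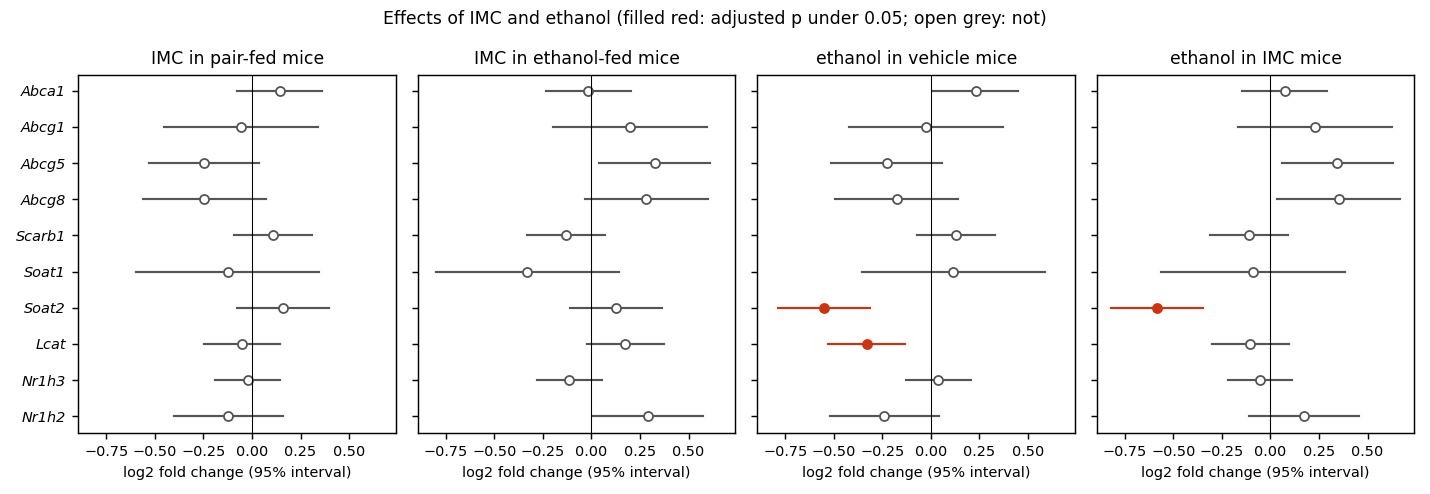
Log2 fold change and 95% interval of the 10 genes for IMC in each diet and for ethanol without and with IMC; red filled points passed an adjusted p of 0.05 in limma and open points did not. Soat2 lay left of 0 in both ethanol comparisons, Lcat in vehicle mice, and no gene passed in the IMC comparisons.

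Soat2 (ENSMUSG00000023045, chr15:102150526-102163469 on GRCm38, plus strand) encodes the acyltransferase that hepatocytes and enterocytes use to make cholesteryl ester for storage and for lipoproteins. Its normalized counts were 768, 661, 852 and 734 in Pair vehicle libraries 10, 12, 14 and 16, and 848, 751, 852 and 907 in Pair IMC libraries 2, 4, 6 and 8. With ethanol they were 543, 495, 495 and 517 in EtOH vehicle libraries 1, 3, 5 and 7, and 424, 614, 594 and 632 in EtOH IMC libraries 9, 11, 13 and 15. Each of the 8 ethanol-fed mice lay below each of the 8 pair-fed mice, and no other gene of the 10 was separated by diet in this way; 2.6% of all genes were.

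The mean of Soat2 was 754 ± 79.3 (SD, n = 4) in Pair vehicle and 512 ± 22.6 in EtOH vehicle, and the log2 fold change was -0.55 (SE 0.11, adjusted p = 0.00479). Under IMC it was 840 ± 65.0 without and 566 ± 96.0 with ethanol, with a log2 fold change of -0.58 (SE 0.11, adjusted p = 0.00238). Averaged over vehicle and IMC the change was -0.57 (95% interval -0.73 to -0.40, adjusted p = 9.69e-05), and the difference between the 2 ethanol effects was -0.031 (95% interval -0.37 to 0.30, adjusted p = 0.947). It passed the threshold in every alternative run, with an adjusted p of 9.82e-05 in edgeR with TMM scaling and 2.03e-09 in DESeq2 for the averaged effect. Libraries 1 to 8 hold EtOH vehicle and Pair IMC only, and libraries 9 to 16 hold EtOH IMC and Pair vehicle only, so the numbering was also examined: the ethanol-fed minus pair-fed difference was -0.71 among libraries 1 to 8 and -0.42 among libraries 9 to 16, without overlap in either. The groups compared in each set of libraries also differ in IMC. All ethanol-fed libraries have odd and all pair-fed libraries even numbers, so diet and odd or even numbering cannot be told apart. In the comparison of IMC mice Soat2 was the 1 gene of the 10 without overlap, as in 19.2% of all genes. Markers of other cells moved with diet as well, averaged over vehicle and IMC. Of 9 endothelial markers 4 were higher and 0 lower with ethanol, and of 9 stellate cell markers 2 were higher, Lrat (1.204, adjusted p = 2.45e-05) and Col1a1 (0.84, adjusted p = 0.0206), and 1 lower. Of 3 intestinal markers tested 1 was lower, Lgals4 (-0.90, adjusted p = 2.79e-05), and 0 higher, and of the 7 hepatocyte markers 1 was lower and 0 higher, with a median log2 fold change of -0.31. Their part in the fall of Soat2 was not tested. In bulk tissue, fewer cells of a type and less RNA per cell cannot be told apart.

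With IMC, Soat2 was 11.6% higher in pair-fed mice (log2 fold change 0.16, SE 0.11, adjusted p = 0.41) and 9.17% higher in ethanol-fed mice (0.13, SE 0.11, adjusted p = 0.451), and neither passed. The groups overlapped in both diets. Averaged over both diets the IMC difference was 0.14 (adjusted p = 0.192), and without library 9, the lowest library of all for this gene, it was 0.21 and passed (adjusted p = 0.0182).

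Soat1 (ENSMUSG00000026600, chr1:156424525-156474331, minus strand), the more widely expressed acyltransferase and the main one of macrophages, was low in every group, at 83.5 ± 23.9 in Pair vehicle, 75.6 ± 15.3 in Pair IMC, 88.2 ± 9.38 in EtOH vehicle and 72.0 ± 19.3 in EtOH IMC. The libraries ran from 43.8 to 113, the 4 groups overlapped, and its ethanol effect averaged over vehicle and IMC was 0.013 (95% interval -0.32 to 0.35, adjusted p = 0.964). Within a library Soat2 exceeded Soat1 in normalized counts 9.62 ± 3.38-fold in Pair vehicle, 11.4 ± 3.07-fold in Pair IMC, 5.82 ± 0.816-fold in EtOH vehicle and 8.50 ± 3.76-fold in EtOH IMC, a ratio that is not corrected for length. In EtOH vehicle this ratio ran from 4.92 to 6.62, below the 9.03 to 15.9 of Pair IMC, and it overlapped the 6.43 to 13.3 of Pair vehicle.

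Lcat (ENSMUSG00000035237, chr8:105939551-105943382, minus strand) had normalized counts of 3978, 4595, 5026 and 4881 in Pair vehicle libraries 10, 12, 14 and 16, and of 4482, 4411, 4486 and 4383 in Pair IMC libraries 2, 4, 6 and 8. The EtOH vehicle libraries 1, 3, 5 and 7 held 3938, 3699, 3283 and 3754, and the EtOH IMC libraries 9, 11, 13 and 15 held 3707, 4072, 3959 and 4887. All 4 EtOH vehicle mice lay below all pair-fed mice, library 10 being the nearest, whereas EtOH IMC overlapped Pair vehicle through libraries 11 and 15 and Pair IMC through library 15.

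In vehicle mice the mean of Lcat fell from 4620 ± 464 to 3669 ± 277 with ethanol (log2 fold change -0.33, SE 0.094, adjusted p = 0.0303), one of 2 genes of the 10 without overlap in that comparison, as in 19.0% of all genes. In IMC mice the values were 4441 ± 51.5 and 4156 ± 511 (-0.10, SE 0.094, adjusted p = 0.487). The difference between the 2 ethanol effects was 0.23 (95% interval -0.053 to 0.51, adjusted p = 0.435), so the data do not show that ethanol acted differently with IMC. Averaged over vehicle and IMC the fall was -0.22 (SE 0.066, adjusted p = 0.0234). By library number the ethanol-fed minus pair-fed difference was -0.28 without overlap among libraries 1 to 8 and -0.155 with overlap among libraries 9 to 16.

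The fall of Lcat depended on the scaling and on single libraries. On the deposited scale, where the median gene was higher with ethanol, it was -0.14 in vehicle mice (adjusted p = 0.293) and -0.026 averaged over vehicle and IMC (adjusted p = 0.781), and in vehicle mice it missed the threshold without library 3, 5, 7, 12, 14 or 16 (adjusted p between 0.0534 and 0.101). The averaged fall missed it with quantile normalization (-0.16, adjusted p = 0.0579), with upper-quartile normalization in edgeR (-0.18, adjusted p = 0.0633), and without library 5 (adjusted p = 0.0525) or library 14 (adjusted p = 0.0509).

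The 250 bases before the RefSeq start site of Lcat (GRCm38.p6, chr8:105943403-105943652, minus strand) are shown because the gene was called with ethanol; the capitals mark AGATAA, the kind of motif that zinc finger factors of the GATA family are known to bind, whose first base lies at -27 when the start site is counted as 0.
Lcat: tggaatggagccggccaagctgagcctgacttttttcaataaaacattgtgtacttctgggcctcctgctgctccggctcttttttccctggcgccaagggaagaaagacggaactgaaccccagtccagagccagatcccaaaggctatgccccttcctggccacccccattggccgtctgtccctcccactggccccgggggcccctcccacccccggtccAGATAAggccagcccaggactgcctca
On either strand AGATAA occurred in 11.2% of 32851 RefSeq promoter windows of 300 bases, which run from 250 bases before the start site to 50 after it. Windows were held for 7 of the 10 genes, and Abcg1, Scarb1 and Soat2 had none. A match is a description of the letters only.

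Abca1 (ENSMUSG00000015243, chr4:53030787-53159895, minus strand), the transporter that begins HDL formation, had normalized counts of 2347, 2238, 2162 and 2503 in Pair vehicle libraries 10, 12, 14 and 16, and of 2527, 2468, 2614 and 2583 in Pair IMC libraries 2, 4, 6 and 8. The EtOH vehicle libraries 1, 3, 5 and 7 held 2775, 2704, 3012 and 2382, and the EtOH IMC libraries 9, 11, 13 and 15 held 2969, 2790, 2999 and 2072. Most ethanol-fed mice had more Abca1 than the pair-fed mice, but libraries 7 and 15 lay within or below the pair-fed range.

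The means were 2313 ± 148, 2548 ± 64.4, 2718 ± 260 and 2708 ± 434 in the 4 groups in that order. The ethanol difference was 0.23 in vehicle mice (SE 0.10, adjusted p = 0.159) and 0.15 averaged over vehicle and IMC (95% interval -0.004 to 0.31, adjusted p = 0.142), and neither passed. Library 15 decided the averaged value: without it the difference was 0.21 and passed in limma (adjusted p = 0.0121) and, on whole reads, in edgeR (adjusted p = 0.0136) and DESeq2 (adjusted p = 0.00154), and in vehicle mice it passed in DESeq2 without that library (0.23, adjusted p = 0.0245). With IMC, Abca1 differed by 0.14 in pair-fed mice (adjusted p = 0.428) and by -0.016 in ethanol-fed mice (adjusted p = 0.929).

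The 250 bases before the RefSeq start site of Abca1 (GRCm38.p6, chr4:53159896-53160145, minus strand) are shown because LXR is known to act on this promoter through a DR4 element, a direct repeat whose copies lie 4 bases apart.
Abca1: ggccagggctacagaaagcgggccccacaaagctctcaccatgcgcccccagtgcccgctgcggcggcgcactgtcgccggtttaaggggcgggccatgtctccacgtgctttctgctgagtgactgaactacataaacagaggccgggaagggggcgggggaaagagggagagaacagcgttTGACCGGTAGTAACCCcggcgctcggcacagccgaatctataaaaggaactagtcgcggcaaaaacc
The capitals mark a match to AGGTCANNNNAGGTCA on the opposite strand with 3 of the 12 fixed letters different, whose first base lies at -67. Up to 3 differences were met in 21.9% of all windows and in those of Abca1 and Lcat, an allowance made after the Abca1 window had been seen; with up to 2 the share was 3.02% and no window of the 10 genes matched. The match in the Lcat window shares 1 base with its AGATAA.

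Abcg1 (ENSMUSG00000024030, chr17:31057675-31117988, plus strand), which is more abundant in macrophages than in hepatocytes, stayed between 44.8 and 88.3 in all libraries. Its group means were 66.5 ± 11.7 in Pair vehicle, 64.7 ± 15.7 in Pair IMC, 65.3 ± 12.1 in EtOH vehicle and 74.7 ± 9.82 in EtOH IMC. The groups overlapped in each comparison, and the interval of the averaged ethanol effect ran from -0.18 to 0.38 and that of the averaged IMC effect from -0.21 to 0.35. Of the 14 macrophage and Kupffer cell markers, 1 was lower and 0 higher with ethanol, and 1 was lower and 0 higher with IMC, on the same averages.

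Abcg5 (ENSMUSG00000040505, chr17:84658234-84683011, minus strand) and Abcg8 (ENSMUSG00000024254, chr17:84676302-84700333, plus strand) are divergent neighbours by the RefSeq start sites at 84683011 and 84683121. The stretch between these start sites (GRCm38.p6, chr17:84683012-84683120, read on the plus strand) is shown because both genes varied together; capitals mark AGATAA as read on the opposite strand.
Abcg5 and Abcg8: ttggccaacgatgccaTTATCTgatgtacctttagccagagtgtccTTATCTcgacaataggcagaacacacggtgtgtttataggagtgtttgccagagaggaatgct
Their first bases lie at -93 and -63 from the Abcg8 start site at 84683121, and a further match lies at -127, inside Abcg5. RefSeq also holds a start site of Abcg8 at 84676302, which lies inside Abcg5.

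Abcg5 had normalized counts of 1199, 962, 1280 and 1275 in Pair vehicle libraries 10, 12, 14 and 16, of 955, 937, 1042 and 1019 in Pair IMC libraries 2, 4, 6 and 8, of 941, 999.5, 979 and 1087 in EtOH vehicle libraries 1, 3, 5 and 7, and of 939.6, 1732, 1239 and 1225 in EtOH IMC libraries 9, 11, 13 and 15. Abcg8 had 1594, 1140, 1389 and 1137 in Pair vehicle, 1077, 1010, 1053 and 1270 in Pair IMC, 1019, 1227, 1098 and 1282 in EtOH vehicle, and 1023, 1887, 1447 and 1380 in EtOH IMC, in the same order. Library 11 was the highest of all for both genes, library 9 was the lowest of its group for both, and every group overlapped every other. Within EtOH IMC the intestinal marker Fabp2 was also highest in library 11, at 1242 against 232.5, 185 and 323 in libraries 9, 13 and 15. Its mean was 1000 in Pair vehicle and 961 in EtOH vehicle, where Abcg5 had means of 1179 and 1002 and Abcg8 of 1315 and 1156. Of the same marker list, Cdh17, Alpi and Reg3g had at most 3 reads in any library. The part of intestinal RNA in the level of Abcg5 and Abcg8 was not tested.

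Within a library the Abcg5 to Abcg8 ratio of normalized counts ran from 0.752 in library 10 to 1.121 in library 16, both Pair vehicle, with group means from 0.870 ± 0.0476 in EtOH vehicle to 0.910 ± 0.157 in Pair vehicle. The genes overlap by 82 exon bases on opposite strands, whether the counting used strand is not stated in the sources used here, and the part of shared reads in their likeness was not tested.

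**Figure D3:**
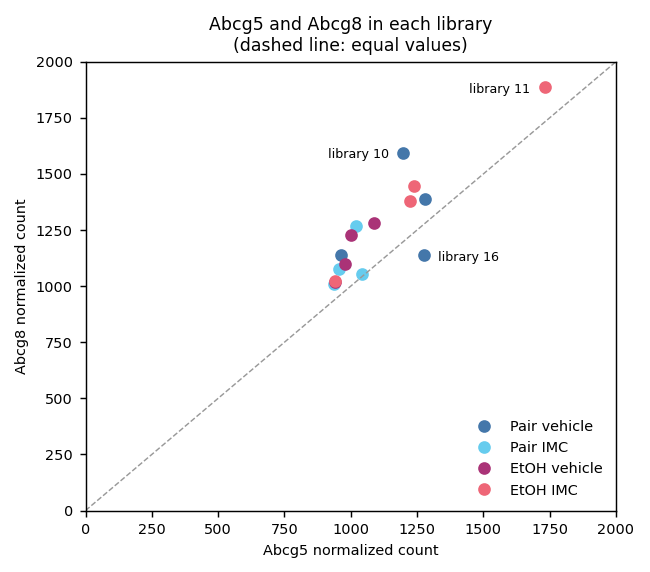
Normalized counts of Abcg5 (x axis) and Abcg8 (y axis), 1 point for each of the 16 libraries, coloured by group; the dashed line marks equal values. The libraries rise together, from about the lower values of Pair IMC to library 11 of EtOH IMC at 1732 and 1887, and libraries 10 and 16 stand off the others.

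The IMC differences of the biliary transporters had opposite signs in the 2 diets, and none passed the threshold. Abcg5 differed by -15.7% with IMC in pair-fed mice (1179 ± 149 and 988 ± 49.98, log2 fold change -0.25, SE 0.14, adjusted p = 0.268) and by 25.3% in ethanol-fed mice (1002 ± 62.0 and 1284 ± 329, 0.33, SE 0.14, adjusted p = 0.0947). Abcg8 differed by -15.6% (1315 ± 220 and 1102 ± 115, SE 0.15, adjusted p = 0.327) and by 21.7% (1156 ± 119.5 and 1434 ± 355, 0.28, SE 0.15, adjusted p = 0.191). The difference between diets was 0.57 for Abcg5 (95% interval 0.17 to 0.98, adjusted p = 0.157) and 0.53 for Abcg8 (95% interval 0.082 to 0.98, adjusted p = 0.238). For that difference 0 of 10 genes passed in limma, edgeR with TMM scaling and DESeq2, beside 1.11% of all genes in limma, and 3, Abcg5, Abcg8 and Nr1h2, had an unadjusted p under 0.05 in limma, beside 15.3% of all genes. This difference is also the contrast of libraries 9 to 16 with libraries 1 to 8, and the 2 cannot be told apart.

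A pair of EtOH IMC libraries set the size of these values. Without library 9, IMC in ethanol-fed mice passed for Abcg5 (0.46, adjusted p = 0.0132) and Abcg8 (0.43, adjusted p = 0.0326), as did the difference between diets for Abcg5 (0.71, adjusted p = 0.0494). Without library 11, the IMC values in ethanol-fed mice were 0.17 for Abcg5 (adjusted p = 0.313) and 0.14 for Abcg8 (adjusted p = 0.522), and the differences between diets were 0.42 (adjusted p = 0.2) and 0.385 (adjusted p = 0.35). Of the 9 stellate cell markers, 4 were lower and 0 higher with IMC in ethanol-fed mice, and 3 were lower and 0 higher for the difference between diets, among them Reln (-1.29, adjusted p = 0.0133); their part in the values of Abcg5 and Abcg8 was not tested. With ethanol in IMC mice the changes were 0.34 (adjusted p = 0.0908) and 0.35 (adjusted p = 0.119), and in vehicle mice they were -0.23 (adjusted p = 0.285) and -0.18 (adjusted p = 0.47). Without library 11 the values in IMC mice were 0.19 (adjusted p = 0.259) and 0.21 (adjusted p = 0.32). Without library 9, ethanol in IMC mice passed for both (0.48, adjusted p = 0.015, and 0.50, adjusted p = 0.0217), and Abcg5 also passed with quantile normalization (0.40, adjusted p = 0.0414) and upper-quartile normalization in edgeR (0.41, adjusted p = 0.0432).

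Scarb1 (ENSMUSG00000037936, chr5:125277087-125341094, minus strand), the HDL receptor, had means of 2293 ± 125 in Pair vehicle, 2475 ± 205 in Pair IMC, 2513 ± 198 in EtOH vehicle and 2303 ± 314 in EtOH IMC. Its libraries ran from 2034 to 2753, every group overlapped every other, and the averaged effects were 0.010 for ethanol (95% interval -0.13 to 0.15) and -0.012 for IMC (95% interval -0.15 to 0.13).

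Nr1h3 (ENSMUSG00000002108, chr2:91184061-91202834, minus strand), the LXR of liver and other metabolic tissues, had the narrowest 95% intervals of the 10 genes. Its means were 1125 ± 111 in Pair vehicle, 1104 ± 28.9 in Pair IMC, 1153 ± 73.0 in EtOH vehicle and 1066 ± 71.0 in EtOH IMC. The averaged effects were -0.007 for ethanol (95% interval -0.12 to 0.11) and -0.068 for IMC (95% interval -0.19 to 0.049). On the deposited scale, which differs by diet, the ethanol value was 0.18 (adjusted p = 0.0129), close to the shift of the median gene of 0.189.

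Nr1h2 (ENSMUSG00000060601, chr7:44549616-44553951, minus strand), the LXR found in most tissues, had normalized counts of 501.5, 504, 378 and 295 in Pair vehicle libraries 10, 12, 14 and 16, of 374, 432, 347 and 359 in Pair IMC libraries 2, 4, 6 and 8, of 355, 365, 358 and 312 in EtOH vehicle libraries 1, 3, 5 and 7, and of 428, 409, 442 and 418 in EtOH IMC libraries 9, 11, 13 and 15. The 4 EtOH IMC mice lay above the 4 EtOH vehicle mice, the only gene of the 10 without overlap in that comparison, as in 25.3% of all genes, while Pair vehicle alone spanned both groups.

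Nr1h2 was 347 ± 24.3 in EtOH vehicle and 424 ± 14.2 in EtOH IMC, and this difference of 0.29 on the log2 scale (SE 0.13) missed the threshold (adjusted p = 0.131) with the spread estimated over all 16 libraries. With only the 8 libraries compared in the fit, it passed (adjusted p = 0.0283), as it did without library 16 of Pair vehicle (adjusted p = 0.046). In pair-fed mice the IMC difference was -0.12 (adjusted p = 0.608), and the difference between diets was 0.41 (95% interval 0.014 to 0.81, adjusted p = 0.307). With ethanol in vehicle mice Nr1h2 differed by -0.24 (adjusted p = 0.253), and by -0.40 without library 16 (adjusted p = 0.0284). The within-library ratio of Nr1h3 to Nr1h2 was 2.999 to 3.897 in EtOH vehicle and 2.29 to 2.76 in EtOH IMC, and 2.05 to 4.33 in Pair vehicle, which holds both ranges.

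**Figure D4:**
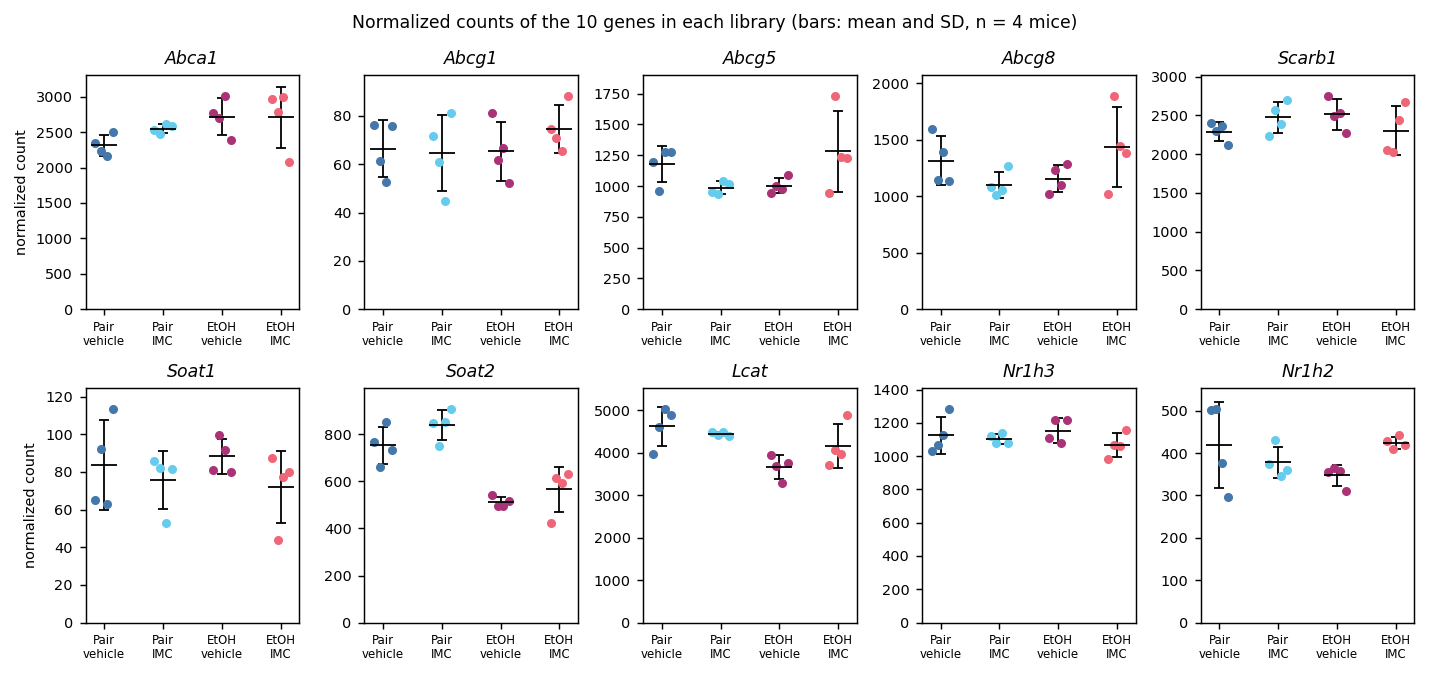
Normalized counts (linear axes from 0) of the 10 genes, 1 point for each library, with bars at the mean and SD of 4 mice. Soat2 was lower in all 8 ethanol-fed mice, Lcat in the 4 EtOH vehicle mice, and the other 8 genes overlapped between diets.

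Related genes are described by lists, with counts over both averaged effects, IMC (28.2% of all genes called) and ethanol (26.1% called). An averaged value does not show whether both of its parts moved alike. Of 9 LXR partners and regulators, 1 rose and 1 fell with IMC: Ncor1, a corepressor, was at 0.22 (log2 fold change, adjusted p = 0.0469) and Rxrg, a retinoid X receptor, at -0.36 (adjusted p = 0.0378), while Ttc39b, a scaffold protein linked to LXR turnover, was at -0.23 (adjusted p = 0.0728). With ethanol 0 rose and 2 fell, Rxrb (-0.23, adjusted p = 0.0362) and the coactivator Ncoa2 (-0.20, adjusted p = 0.0367), and Med1 was at 0.17 (adjusted p = 0.0917).

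Other known LXR targets moved both ways. With IMC 2 of 13 rose and 2 fell, the strongest being Srebf1, the lipogenic transcription factor (-0.51, SE 0.084, adjusted p = 0.000308), Arl4c (-0.71, adjusted p = 0.00586) and Rnf145, an endoplasmic reticulum ubiquitin ligase (0.44, adjusted p = 0.0118). With ethanol 2 rose and 5 fell, and Srebf1 went up (0.54, adjusted p = 0.000256) while Scd1, the stearoyl-CoA desaturase (-1.83, SE 0.23, adjusted p = 4.17e-05), and Pltp, the phospholipid transfer protein (-1.245, SE 0.16, adjusted p = 4.56e-05), went down. Srebf1 was 2665 ± 47.9 in Pair vehicle, 1549 ± 217 in Pair IMC, 3202 ± 441 in EtOH vehicle and 2740 ± 444 in EtOH IMC. Scd1 was 126700 ± 27950 in Pair vehicle, 281800 ± 108100 in Pair IMC, 72390 ± 17210 in EtOH vehicle and 38620 ± 16650 in EtOH IMC. Its mean was thus higher with IMC in pair-fed and lower in ethanol-fed mice, with overlapping libraries in each diet, which an average over diets does not show. Calls in this list also differed by diet. With IMC in pair-fed mice 2 of 13 were higher and 1 lower, with a median of 0.139 (9.49% of all genes called). In ethanol-fed mice 1 was higher and 6 lower, with a median of -0.351 (21.5% called). For the difference between diets 0 were called higher and 1 lower. Abca1 and Abcg1, known targets of the same receptors, did not pass in any comparison in limma on the rescaled values of all 16 libraries. On the deposited scale, which differs by diet, Abca1 passed with ethanol.

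Of the 10 HDL proteins, HDL remodelling enzymes and SR-BI scaffold, 0 rose and 5 fell with IMC. Lipc, hepatic lipase, fell most firmly (-0.76, SE 0.094, adjusted p = 3.05e-05), from 2190 ± 166 to 1496 ± 303 in pair-fed and from 2824 ± 324 to 1462 ± 210 in ethanol-fed mice, followed by Pon1, the HDL paraoxonase (-0.41, adjusted p = 0.00189), and Pdzk1, the scaffold that holds SR-BI at the membrane (-0.25, adjusted p = 0.0257). With ethanol 0 rose and 2 fell, Apoa1, the main HDL protein (-0.41, adjusted p = 0.0239), and Lipg, endothelial lipase (-0.50, adjusted p = 0.024), and Apoa4 was at 0.60 (adjusted p = 0.189). The averaged fall of Lipg came from IMC mice, with 334 ± 73.6 in Pair IMC and 169 ± 56.3 in EtOH IMC. In vehicle mice Lipg was 315 ± 61.8 without and 317 ± 41.0 with ethanol, and 0 of the 10 genes of this list were called there.

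Of 14 genes for lysosomal release, intracellular transport and ester hydrolysis of cholesterol, 13 were tested, of which 1 rose and 3 fell with IMC and 1 rose and 5 fell with ethanol. The 3 that fell with IMC were Stard4, a soluble sterol carrier (-0.59, adjusted p = 0.000318), Gramd1c (-0.38, adjusted p = 0.00228) and the hormone-sensitive lipase Lipe (-0.55, adjusted p = 0.00568). With ethanol the firmest were Gramd1a, which moves plasma membrane cholesterol to the endoplasmic reticulum (-0.385, adjusted p = 0.000786), Stard5 (-0.32, adjusted p = 0.00594) and Npc2, the lysosomal cholesterol carrier (-0.315, adjusted p = 0.00657).

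Of 8 oxysterol making and clearing enzymes, 6 were tested. With IMC 2 rose, Cyp39a1 (0.50, adjusted p = 0.00233) and Cyp27a1, the mitochondrial sterol 27-hydroxylase (0.32, adjusted p = 0.00247), and 2 fell, among them Hsd3b7 of bile acid synthesis (-0.32, adjusted p = 0.024). With ethanol 0 rose and 2 fell, Cyp27a1 (-0.26, adjusted p = 0.00987) and Cyp46a1 (-0.64, adjusted p = 0.0151).

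Of the 6 lists, the one with the median farthest from 0 was SREBP2 and its targets, the genes of cholesterol synthesis and uptake, at -0.79 with IMC, where 9 of 10 fell and 0 rose. The lists were chosen with earlier results of these data known, so this order is a description only. Srebf2 itself was at -0.67 (adjusted p = 3.34e-05), Fdft1, squalene synthase, at -0.97 (adjusted p = 6.29e-05), and Hmgcs1, HMG-CoA synthase, at -1.36 (adjusted p = 6.8e-05). Hmgcs1 was 8162 ± 2332 in Pair vehicle, 3912 ± 2086 in Pair IMC, 8628 ± 1444 in EtOH vehicle and 2868 ± 329 in EtOH IMC. With ethanol 1 of 10 fell, Scap (-0.26, adjusted p = 0.016), while Srebf2 was at 0.11 (adjusted p = 0.362). On the same averaged IMC effect the 10 efflux and esterification genes lay between -0.23 and 0.14 and 0 passed.

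**Figure D5:**
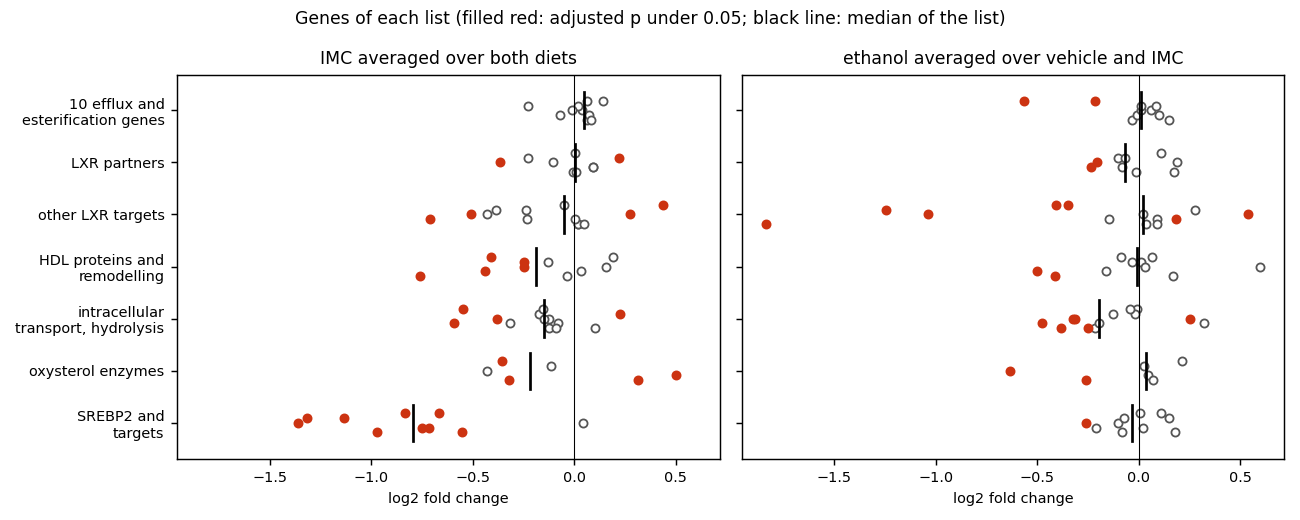
Log2 fold change of each tested gene of the 10 efflux and esterification genes and of 6 related lists, for IMC averaged over both diets (left) and ethanol averaged over vehicle and IMC (right); red filled points passed an adjusted p of 0.05 in limma, open points did not, and black lines are list medians. With IMC the SREBP2 list lay at a median of -0.79 and the 10 genes at 0.051.

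As a description of likeness over the 16 libraries, which share groups and scaling, the gene outside the 10 whose log2 values had the highest Pearson correlation with Soat2 was Tspan12 (r = 0.954), with Lcat Eif3f (0.907), with Nr1h2 Armc6 (0.892), with Nr1h3 Msrb1 (0.88), with Soat1 Cyth4 (0.874), with Abcg1 Tmem159 (0.855), with Abca1 Zfp445 (0.834), with Abcg5 Zswim7 (0.818), with Scarb1 BC025920 (0.799) and with Abcg8 Vps33b (0.785).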

How the data were processed

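Liver RNA of 16 mice was sequenced by the authors, who trimmed reads with Trim Galore, checked them with FastQC, aligned them with STAR to mm10 and named upper quantile normalization in edgeR; the counting tool is not given in the sources used here. Per the labels the kit was directional and paired-end, whereas the methods say single-end. The deposited signal values are reads per gene divided by a size factor per library: all values lay within 0.01 of whole reads. The table had 27212 rows for 24082 gene IDs, of which 430 carried several symbols and were used once.

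Values were rescaled by a median ratio over all 16 libraries (factors 0.9398 to 1.0789). With a minimum of 10 in 4 or more libraries, 12522 genes remained and were fitted in limma 3.58.1 (R 4.3.3) on log2(value + 1), with 4 group means and a trend of the variance on the mean. Tests were two-sided, with p-values adjusted over these genes by Benjamini-Hochberg and a threshold of 0.05. Fold changes are on that scale, which understates low genes. Whole reads were tested in edgeR 4.0.16 and in DESeq2 1.42.0 as alternatives. In library 15 the value of 1 read, 1.0096, tells whole reads from normalized values least securely, so these tests were also run without it, a choice made after seeing the data. The limma fit was run on simulated data with the same spread for every gene and larger changes than those of the 10 genes. It does not show how well changes of their size are detected. No 2 libraries of a group agreed within sampling noise (chi-square per gene 5.88 to 47.1 over 24 pairs). Nothing in the labels names litters or cages, while a figure legend of the study counts diet intake by cages in each group. Which sequenced mice shared a cage is not given. The p-values therefore take the mice as independent, and the part of cage in the group differences was not tested. Positions and lengths are from GENCODE vM21 on GRCm38, which held 24026 of the IDs, and promoters from RefSeq (GRCm38.p6). The members, lists and tests were chosen with earlier results of these data known. Named beyond the 10 genes were, in each list, the 3 genes with the smallest p for averaged IMC and averaged ethanol, and the gene most correlated with each member. Some genes that this rule covers are not reported here.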

Additional observations from a re-analysis of the deposited data

Results flagged for a closer look

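Of 40 groups (10 genes in 4 groups of 4 libraries), 1 held a library whose gap to the nearest other library, divided by the range of the group, exceeded Dixon's 95% critical value of 0.829: Soat1 in Pair IMC, where library 6 had a normalized count of 52.78 and the others 81.3 to 85.9. Chance alone gives about 1 such group in 20, and Soat1 rested on few reads.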

How the results depend on the processing

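The 0 of 10 genes called for IMC in pair-fed mice stayed 0 in every alternative run, and for IMC averaged over both diets and for the difference between diets it moved only with a library left out, to between 0 and 1 in each. For IMC in ethanol-fed mice the count was 1 with quantile normalization (Lcat, log2 fold change 0.28), 1 with only the libraries compared, and 0 to 2 with each library left out. For ethanol in vehicle mice the count of 2 became 4 on the deposited scale, 1 with upper-quartile normalization in edgeR, and 1 to 2 with each library left out. For ethanol in IMC mice the count of 1 became 3 on the deposited scale, 2 with quantile normalization, 2 with upper-quartile normalization, and 1 to 3 with each library left out. For the averaged ethanol effect the count of 2 became 6 on the deposited scale, 1 with quantile normalization, 1 with upper-quartile normalization, and 1 to 3 with each library left out. On the deposited scale the Nr1h3 ethanol effect averaged over vehicle and IMC reversed, to 0.18 (adjusted p = 0.0129); that scale holds a shift of the median gene of 0.189 between diets. For the other changes the cause was not tested.

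Over all genes, calls for the difference between diets went from 139 to 339 with DESeq2, 72 with edgeR TMM without library 15 and 54 without library 5 of EtOH vehicle. Those for IMC in pair-fed mice went from 1188 to 691 with only the libraries compared and 537 without library 4. Those for ethanol on the deposited scale went from 1491 to 3000 in vehicle mice, from 2064 to 3624 in IMC mice and from 3273 to 5222 on average, from 2064 to 1344 with edgeR TMM without library 15, and from 1491 to 803 without library 5. Pseudocounts of 0.1 and 5, no filter, a mean of at least 100 and no mean-variance trend were also run. No paired analysis was possible because no replicate number occurs in more than 1 group.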
